A study of Homo sapiens with 5 samples.

Results

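Many human genes can end their mRNA at more than 1 place within the last exon, and the choice sets how much of the 3′ untranslated region (3′ UTR) the mRNA carries. The genes described here have their 2 most-read poly(A) sites in the last exon, at positions 1000 to under 4000 nt apart. Members were selected on read totals over all 5 libraries: for each gene, chromosome and strand the 2 sites with most reads were taken, with minimums of 20 reads for the pair and 5 for each site as a mean over libraries. This gave 1615 pairs, out of 5869 pairs of any site class and distance, of which 4680 lay wholly in last exons. A further 1838 pairs of this class and distance fell under the read minimums and were not analysed here. The selection used read totals and positions and no difference between groups, so read depth and distance are given as a description. The site nearer the start of the gene is called proximal and the other distal, and proximal use is the percentage of the pair's reads at the proximal site.

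The libraries came from 2 CFIm68 knockout cell lines, 2 CFIm59 knockout cell lines and 1 wild type control, all HEK293T, a human embryonic kidney line that carries the SV40 large T antigen. The knockouts were made with CRISPR/Cas9 and all cells were grown in DMEM with 5% serum, per the labels. Each library counted reads at poly(A) sites in total RNA, by sequencing cDNA primed from the poly(A) tail. The labels name the lines of a genotype as separate cell lines, so the spread behind the p-values is between lines, and the sources used here do not say whether each line is a single clone. With 1 control library, the control was assumed to vary like the knockout lines.

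Cleavage factor Im (CFIm) is part of the machinery that cuts the nascent transcript before the poly(A) tail is added. It is built from CFIm25 (gene NUDT21), which binds the RNA letters UGUA, together with CFIm68 (gene CPSF6) or CFIm59 (gene CPSF7). Bound upstream of a poly(A) site it favours cleavage there, and the 3′ UTR stretch between a proximal and a distal site can hold binding sites for microRNAs and RNA-binding proteins.

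The libraries held 2727728 and 2078376 reads in the CFIm68 knockout lines, 1673687 and 2585923 in the CFIm59 knockout lines and 2924266 in the control, and the 1615 pairs took from 11.2 to 11.8% of them. CPSF6 stood at 48.0 and 45.7 CPM (reads scaled to a common library total) in the CFIm68 knockout lines, against 141 and 143 CPM in the CFIm59 knockout lines and 120 CPM in the control. CPSF7 stood at 128 and 204 CPM in the CFIm68 knockout lines, 68.4 and 55.5 CPM in the CFIm59 knockout lines and 59.8 CPM in the control. It was thus not lower in the CFIm59 knockout lines together than in the control, so its 3′ reads do not check the CFIm59 label. Its part in the CFIm68 results was not tested. All 10 genes listed as markers of HEK293T cells averaged 1 CPM or more. The same held for 2 of 7 blood, 3 of 6 fibroblast, 1 of 4 hepatocyte and 2 of 4 other epithelial markers. The hepatocyte gene was ALB, at 26.3 CPM in the control and at most 0.414 CPM in any knockout line; its part in the results was not tested.

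The letters at annotated 3′ ends are shown for 6 well-read pairs, to show the poly(A) signal and the CFIm-bound letters where they stand. All 6 moved toward the proximal site in the CFIm68 knockout, and the calls of HMGB1 and YME1L1 ended with the outermost last exon sites. YME1L1 was picked by another rule, for its move to distal in the CFIm59 knockout. That call ended with DESeq2, with no read minimum, with the outermost sites and without either CFIm59 knockout line. Capitals mark the poly(A) signals AATAAA and ATTAAA and the CFIm letters TGTA, the DNA form of UGUA. Each is the last 30 bases of an annotated transcript of GENCODE release 29 (GRCh38), 5′ to 3′ on the gene's strand, matched to the deposited pair by gene, strand and distance between ends.
PPIA proximal (chromosome 7): gattatgaAATAAAaactaaataacaattg
PPIA distal (chromosome 7): tggaAATAAAcatcaaacatcttttcatta
SRSF7 proximal (chromosome 2): gcacatttaAATAAAatgtttctaactaga
SRSF7 distal (chromosome 2): caacAATAAAtctgcagagattgaacaaat
YME1L1 proximal (chromosome 10): aaaaAATAAAgaactatcaggattgaaaac
YME1L1 distal (chromosome 10): tcATTAAAattatctacaatttcctaataa
HMGB1 proximal (chromosome 13): gcttctaagtaaatacaattttttttatta
HMGB1 distal (chromosome 13): tAATAAActaataattgcagaggttttaaa
HNRNPC proximal (chromosome 14): ggaTGTAtggtttttatcaactgtctccaa
HNRNPC distal (chromosome 14): atacctgataaaaTGTAaatggtaTGTAaa
DDX17 proximal (chromosome 22): agacttaattacattttaaggaacactgtc
DDX17 distal (chromosome 22): gtaggtataAATAAAaacactgttgacaat

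PPIA and SRSF7 have AATAAA in these letters at both ends, and HMGB1 and DDX17 at the distal end and not at the proximal one. YME1L1 has AATAAA at the proximal end and ATTAAA at the distal end, and HNRNPC has neither signal in these letters at either end. Searched over the last 100 bases on the transcript strand, TGTA stood 4 times at the distal end of HNRNPC and 2 times at its proximal end. DDX17 had it 2 times at the distal end and 0 times at the proximal end, and PPIA and YME1L1 1 time and 0 times. SRSF7 and HMGB1 had it 1 time at each end. ATP5G3, a subunit of ATP synthase that also moved to proximal in the CFIm68 knockout, had it 0 times at the distal end and 3 times at the proximal end; its letters are not shown because a site of it is also listed under another gene. No match in a window says only that these letters are not in that window.

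Members lay a median of 1969 nt apart (quartiles 1412 and 2644, range 1000 to 3997). The pair took a median of 81.5% of its gene's reads (quartiles 67.9 and 92.6). In 1149 members no other last exon site lay between the 2 sites, 309 had 1 such site and 157 had 2 or more. Median proximal use was 64.0 and 62.2% in the CFIm68 knockout lines, 26.2 and 26.6% in the CFIm59 knockout lines and 35.8% in the control. The proximal site took most of the pair's reads in 1010 and 975 members in the CFIm68 knockout lines, 486 and 495 in the CFIm59 knockout lines and 597 in the control. Counted over each library's own reads, a median member carried 685 and 706 nt beyond its proximal site in the CFIm68 knockout lines, 1238 and 1245 nt in the CFIm59 knockout lines and 1091 nt in the control. Lines of a genotype differed by a median of 4.57 points for CFIm68 and 4.22 points for CFIm59. Over all 5869 pairs, median proximal use was 50 and 47.1%, 28.6 and 29.2%, and 34.4% in the same order of libraries.

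**Figure D1:**
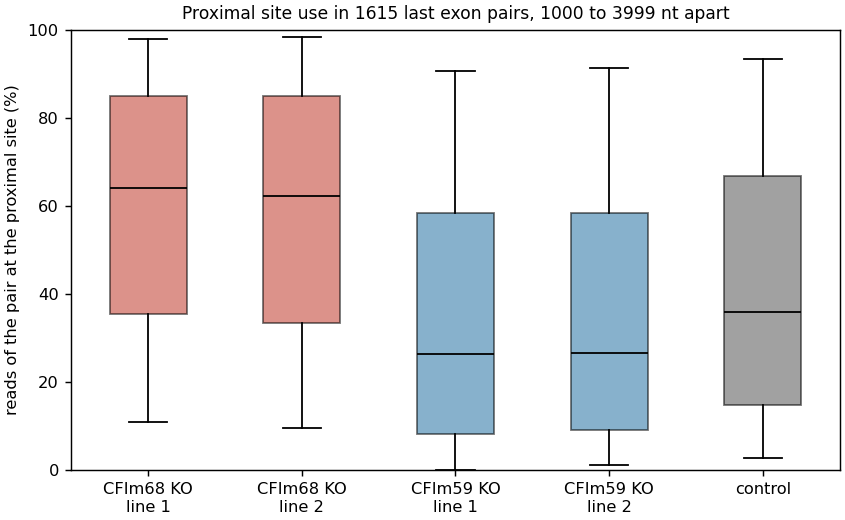
Proximal site use (% of the pair's reads) in the 1615 pairs by library; boxes span the quartiles with the median as a line, and whiskers run from the 5th to the 95th percentile. Both CFIm68 knockout lines have medians above 60%, both CFIm59 knockout lines lie near 26%, and the control lies between them at 35.8%.

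The CFIm68 knockout was set against the control to see which of these long 3′ UTRs change their end without CFIm68. Of 1615 members, 736 moved to the proximal site, which is 45.6%, against 25.0% of all pairs tested. Another 27 moved to the distal site, 1.67% against 3.10% of all pairs, and 852 did not pass the test. The median change over members was 13.6 percentage points, against 5.16 points over all pairs tested. Among the 736 members the median change was 32.9 points. All p-values in the text are Benjamini-Hochberg adjusted over all pairs (or all genes, for gene level), from the quasi-likelihood test of edgeR, with a threshold of 0.05, and a positive log2 value is a move of the proximal to distal ratio toward proximal. DESeq2 called 455 of these members to proximal and 7 to distal, all of them also called by edgeR.

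Among members with 100 or more reads per library, the 8 with the largest moves were mostly proximal in both CFIm68 knockout lines and mostly distal in the control. Choosing the largest gains leaves little room for another pattern. BCLAF1, a nuclear regulator of transcription and splicing (chromosome 6, minus strand, hg19 positions 136581866 and 136579725, 2141 nt apart), used its proximal site for 79.9 and 76.3% of reads in the CFIm68 knockout lines, 4.60 and 4.48% in the CFIm59 knockout lines and 12.2% in the control (95% Wilson interval 8.73 to 16.8). Both CFIm68 knockout lines stood far above the other libraries (log2 4.67, SE 0.44, adjusted p = 1.11e-11). These percentages are of the pair's reads, and the pair took 48.8% of all BCLAF1 reads. Another 3 last exon sites lay between its sites and 5 outside them. AASDHPPT, which adds the phosphopantetheine arm to carrier proteins (chromosome 11, plus strand, 105967715 and 105969420), stood at 80.5 and 83.0%, 6.92 and 11%, and 15.1% (10.7 to 21.0) in the same order of libraries (log2 4.63, SE 0.45, adjusted p = 2.06e-11). SLK, a kinase of the Ste20 family (chromosome 10, plus strand, 105785840 and 105788989), stood at 88.6 and 87.8% in the CFIm68 knockout lines, 12.5 and 8.51% in the CFIm59 knockout lines and 27.0% in the control (20.6 to 34.5; log2 4.34, SE 0.44, adjusted p = 7.87e-11). In each of these genes the CFIm68 knockout lines did not overlap the others. Lying above the control was a condition of the choice. Both CFIm68 knockout lines lay above both CFIm59 knockout lines in 76.7% of members and 56.7% of all pairs tested. PRRC1, a coiled-coil protein of the secretory pathway, held 74.9 and 76.5% in the CFIm68 knockout lines, 7.94 and 8.29% in the CFIm59 knockout lines and 6.57% in the control (adjusted p = 1.73e-12). The other genes with the largest moves were PUM2, UBQLN1, ESYT2 and IREB2, each at 83.9% or more in both CFIm68 knockout lines and at 18.4% or less in every other library.

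The counts of the gene lists stand beside 45.6% to proximal over all members (median 13.6 points) and 25.0% over all pairs. Regulators that bind 3′ UTRs numbered 15 among the members. Of them 11 moved to proximal in the CFIm68 knockout and 0 to distal, with a median change of 42.1 points, against 5.16 points over all pairs. ELAVL1, the AU-rich element binding protein HuR (chromosome 19, minus strand, 8028314 and 8027158), stood at 61.6 and 41.1% in the CFIm68 knockout lines, 7.94 and 7.88% in the CFIm59 knockout lines and 12.9% in the control (9.71 to 17.0). Its CFIm68 knockout lines differed by more than those of most members and both lay above all other libraries (log2 2.84, SE 0.44, adjusted p = 1.24e-06). G3BP2, a stress granule protein (chromosome 4, minus strand, 76569558 and 76567973), stood at 55.1 and 61.8% in the CFIm68 knockout lines, 6.25 and 7.55% in the CFIm59 knockout lines and 11% in the control (log2 3.50, SE 0.41, adjusted p = 2.66e-09). CPEB2, CPEB4, FMR1, LARP4B, TIA1, TIAL1 and YTHDF3 also moved to proximal. CAPRIN1, a partner of the G3BP proteins, and LARP1, which binds mRNAs of ribosomal proteins, did not pass the test. LARP1 held 0.777 and 1.73% in the CFIm68 knockout lines, 1.74 and 1.76% in the CFIm59 knockout lines and 1.02% in the control.

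Factors of RNA processing were few and most passed. Median changes were 25 points in SR proteins, 9.12 in hnRNP proteins and 16 in cleavage factors, beside 13.6 over all members. All 4 SR splicing proteins among the members, RSRC1, SRSF6, SRSF7 and SRSF12, moved to proximal. SRSF6 (chromosome 20, plus strand, 42090189 and 42092242) held 73.3 and 81.9% in the CFIm68 knockout lines, 59.6 and 53.6% in the CFIm59 knockout lines and 46.1% in the control (40.6 to 51.7; log2 2.03, SE 0.40, adjusted p = 7.45e-05). Of 4 hnRNP proteins, HNRNPC, HNRNPDL and SYNCRIP moved to proximal and HNRNPA2B1 did not pass. HNRNPC, whose 3′ ends are shown above (21679096 and 21677308), stood at 97.5 and 97.8% in the CFIm68 knockout lines, 80.2 and 82.2% in the CFIm59 knockout lines and 88.2% in the control (86.2 to 90; log2 2.44, SE 0.42, adjusted p = 6.46e-06). Of 4 cleavage and polyadenylation factors, CPSF2, CSTF2 and NUDT21 moved to proximal, so the gene of the UGUA-binding subunit is itself a member. CSTF2, the subunit that binds downstream of the cut, held 93.3 and 95.6% in the CFIm68 knockout lines, 51.4 and 63.4% in the CFIm59 knockout lines and 85.2% in the control (79.3 to 89.6; adjusted p = 0.0348). The calls of CPSF2 (adjusted p = 0.0403) and CSTF2 against the control ended with DESeq2 and without CFIm68 knockout line 2, and that of CPSF2 also without line 1.

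Of 19 genes of ubiquitin conjugation 15 moved to proximal and 0 to distal, beside 45.6% of all members, with a median of 17 points, near the 13.6 points of all members. The cullins CUL3 and CUL5, the E3 ligases ITCH and MDM2 and the substrate adaptor BTRC were among them. UBE2L3 did not pass, at 79.8 and 76.8% in the CFIm68 knockout lines, 75.2 and 72.3% in the CFIm59 knockout lines and 77.8% in the control (adjusted p = 0.948). Of 11 chaperones and stress response genes 9 moved to proximal, with a median of 24.2 points. HSPA4, a nucleotide exchange factor for HSP70 chaperones (chromosome 5, plus strand, 132440163 and 132442139), stood at 99.4 and 99.3% in the CFIm68 knockout lines, 83.6 and 85.7% in the CFIm59 knockout lines and 90.5% in the control (87.9 to 92.7; log2 3.96, SE 0.57, adjusted p = 2.38e-07). DNAJB1, at 28.8 and 13.8% in the CFIm68 knockout lines, 10.3 and 7.01% in the CFIm59 knockout lines and 8.52% in the control, rested on line 1: its call (adjusted p = 0.0186) ended without it.

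Of 17 genes of RAS, PI3K and MAPK signalling 13 moved to proximal (median 31.9 points) and 0 to distal, and of 14 genes of Wnt, Notch and TGF-beta signalling 10 did (median 29 points), beside 45.6% and 13.6 points over all members. TLE4, a Groucho co-repressor (chromosome 9, plus strand, 82340406 and 82341654), stood at 98.3 and 98.8% in the CFIm68 knockout lines, 31.9 and 36.4% in the CFIm59 knockout lines and 48.2% in the control (41.2 to 55.2). The control thus split its reads about evenly between the sites and the CFIm68 knockout lines barely used the distal one (log2 6.14, SE 0.52, adjusted p = 6.28e-13). CSNK1D, casein kinase 1 delta, held 68.1 and 59.3% in the CFIm68 knockout lines, 23.3 and 29.6% in the CFIm59 knockout lines and 31.1% in the control (adjusted p = 0.00019). AKT2, which was mostly proximal in every library (91.4 and 90.6%, 93.0 and 90.8%, and 87.7%), did not pass (adjusted p = 0.461). Of 10 protein phosphatase genes 6 moved to proximal (median 15.1 points), near the values of all members. PTP4A1, a prenylated tyrosine phosphatase (chromosome 6, plus strand, 64291360 and 64293282), stood at 89.7 and 95.3% in the CFIm68 knockout lines, 46.6 and 49.0% in the CFIm59 knockout lines and 60.4% in the control (55.3 to 65.2; log2 3.08, SE 0.44, adjusted p = 1.9e-07). PPP1CB, a catalytic subunit of protein phosphatase 1, stood at 91.0 and 89.8%, 67.2 ± 2.71% (SD, n = 2) and 70.3% in the same order (adjusted p = 0.000101).

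In membrane traffic 12 of 21 members moved to proximal (median 31.5 points), among them RAB2A, RAB10, RAB14, RAB18 and ARF6. In nuclear transport 6 of 10 did (median 16.3 points). IPO7, an importin (chromosome 11, plus strand, 9467775 and 9468788), held 73.7 and 71.6% in the CFIm68 knockout lines, 32.7 and 32.3% in the CFIm59 knockout lines and 42.6% in the control (37.9 to 47.5; log2 1.83, SE 0.38, adjusted p = 0.000129). Lipid synthesis gave 7 of 11 (median 28.3 points), chromatin regulators 7 of 14 (16.8 points), the microRNA and deadenylation list 4 of 8 (13.2 points) and translation factors 4 of 11 (12.1 points). The last 3 of these lie near the 45.6% and 13.6 points of all members. Among these, BAZ2B, a chromatin reader, and MOV10 moved to distal. CNOT6, a deadenylase subunit (chromosome 5, plus strand, 180003819 and 180005355), stood at 96.9 and 94.4% in the CFIm68 knockout lines, 69.3 and 66.7% in the CFIm59 knockout lines and 62.4% in the control (54.4 to 69.8; log2 3.68, SE 0.52, adjusted p = 1.6e-07). EIF1AX, a start codon scanning factor (chromosome X, minus strand, 20145354 and 20142644), stood at 84.3 and 84.1% in the CFIm68 knockout lines, 36.4 and 41.2% in the CFIm59 knockout lines and 49.4% in the control (45.5 to 53.3; log2 2.45, SE 0.38, adjusted p = 1.06e-06). Zinc finger genes gave 6 of 27 to proximal, with a median of 8.47 points. Cell cycle genes gave 5 of 13 (median 5.92 points), with SMC1A to distal, and solute carriers 10 of 27 (median 17.6 points). The lists were not tested against each other.

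The 10 most-read members were MT-ND1, MTND5P12, a pseudogene of a mitochondrial gene, UBB and 7 genes of ribosomal proteins. RPS23, RPS19, RPL32 and RPS15A had proximal use between 98.3 and 99.8% in every library, and none of the 4 passed the test in the CFIm68 knockout. RPS23 passed to distal in the CFIm59 knockout, at 98.3 and 98.9% against 99.7% in the control (adjusted p = 0.00485), a call that ended with DESeq2 and without CFIm59 knockout line 1. RPL23 (chromosome 17) split its reads, at 58.0 and 61.9% in the CFIm68 knockout lines, 55.3 and 62.9% in the CFIm59 knockout lines and 67.8% in the control, and did not pass either (adjusted p = 0.353). UBB, a polyubiquitin gene, passed with a small shift, at 99.92 and 99.93% in the CFIm68 knockout lines against 99.6% in the control (99.3 to 99.7; adjusted p = 0.00316). DDX17, an RNA helicase whose ends are shown above, did the same at the other end of the scale, with 2.07 and 2.4% in the CFIm68 knockout lines, 0.279 and 0.102% in the CFIm59 knockout lines and 0.331% in the control (log2 2.73, SE 0.69, adjusted p = 0.00158). Ribosomal protein genes have many processed pseudogenes, and the sources used here do not say how such copies were counted.

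Moves to the distal site in the CFIm68 knockout were 27, and those of PHF10 and SMC1A changed with the pair chosen. PHF10, a subunit of the PBAF chromatin remodeller (chromosome 6, minus strand, 170107131 and 170104003), fell to 13.2 and 20.2% proximal use in the CFIm68 knockout lines, against 51.5 and 54.2% in the CFIm59 knockout lines and 40% in the control (35.2 to 45). The CFIm68 knockout lines were the lowest (log2 -1.77, SE 0.40, adjusted p = 0.000414). With the most proximal and most distal last exon sites of PHF10 the direction turned to proximal (log2 5.83). SMC1A, a cohesin subunit (chromosome X, minus strand, 53404900 and 53401071), held 52.7 and 79.4% in the CFIm68 knockout lines, 88.9 and 86.6% in the CFIm59 knockout lines and 91.7% in the control (88.4 to 94.1; log2 -2.47, SE 0.50, adjusted p = 0.000101). Its CFIm68 knockout lines lay apart from each other, and the call ended with the outermost sites. POP4 (adjusted p = 0.029), a subunit of RNase P, and MOV10 (adjusted p = 0.0481), an RNA helicase of silencing complexes, passed with smaller moves, and both calls ended with DESeq2 and without CFIm68 knockout line 2. AARS, the alanyl-tRNA synthetase, held 55.2 and 54.6% in the CFIm68 knockout lines, 61.4 and 62.0% in the CFIm59 knockout lines and 80.1% in the control (adjusted p = 0.00068), but a site of it is also listed under another gene, so its reads are uncertain. The same holds for MT-ND1, a mitochondrial gene. It stood at 6.43 and 2.23% in the CFIm68 knockout lines, 3.19 and 4.41% in the CFIm59 knockout lines and 12.3% in the control. MT-ND1 passed to distal in both comparisons with the control, which share the same control library. Its direction between the knockouts was log2 -0.78 without CFIm68 knockout line 1, and 0.06 with all lines.

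The CFIm59 knockout was set against the same control library for the question of CFIm59, so values of the 2 knockouts are given side by side and their overlap is not. Of 1615 members 140 moved to the distal site, 8.67% against 5.06% of all pairs tested, and 9 moved to the proximal site, 0.557% against 0.988% of all pairs. The median change was -5.10 points, against -2.42 points over all pairs, and among the 140 members it was -22.9 points. This count depended on the fit: DESeq2 called 6 to distal and 2 to proximal (193 and 12 at an unadjusted p under 0.05). Without CFIm59 knockout line 1 the count to distal was 76, and without line 2 it was 62.

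At the same read minimum, the 6 largest moves to distal were in RBM25, NDUFAF4, SELT, SCARB2, BAIAP2L1 and NEFL. NDUFAF4 remained mostly proximal, and SCARB2 used both sites about evenly in the control. RBM25, a splicing regulator (chromosome 14, plus strand, 73586836 and 73588074), used its proximal site for 33.7 and 31.0% of reads in the CFIm59 knockout lines, 97.9 and 97.4% in the CFIm68 knockout lines and 72.2% in the control (64.9 to 78.5). The 3 groups did not overlap (CFIm59 knockout against control log2 -2.44, SE 0.44, adjusted p = 0.000322). Among all members, both CFIm68 knockout lines lay above both CFIm59 knockout lines in 76.7%. NDUFAF4, an assembly factor of mitochondrial complex I (chromosome 6, minus strand, 97338890 and 97337191), stood at 61.4 and 60.1% in the CFIm59 knockout lines, 97.7 and 97.1% in the CFIm68 knockout lines and 93.7% in the control (89.3 to 96.4; log2 -3.25, SE 0.50, adjusted p = 3.31e-05). SELT, an ER selenoprotein (chromosome 3, plus strand, 150346161 and 150348222), held 39.2 and 39.0% in the CFIm59 knockout lines, 94.8 and 95.0% in the CFIm68 knockout lines and 71.8% in the control (63.5 to 78.8; log2 -1.98, SE 0.45, adjusted p = 0.00415). SCARB2, a lysosomal membrane receptor (chromosome 4, minus strand, 77082606 and 77079893), held 17.1 and 19.8% in the CFIm59 knockout lines, 93.5 and 89.0% in the CFIm68 knockout lines and 48.4% in the control (40.7 to 56.2; log2 -2.04, SE 0.49, adjusted p = 0.00626). BAIAP2L1, an actin regulator (adjusted p = 0.00477), and NEFL, a neurofilament subunit (adjusted p = 0.000635), were the other 2 with the largest moves. Of these 6 genes only NDUFAF4 also passed with DESeq2. The call of RBM25 ended as well with the outermost last exon sites, and that of SCARB2 without CFIm59 knockout line 1.

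Among deeply read list members, RAN, the GTPase that drives nuclear transport (chromosome 12, plus strand, 131360824 and 131362222), stood at 88.7 and 89.7% in the CFIm59 knockout lines, 99.75 and 99.96% in the CFIm68 knockout lines and 97.5% in the control (96.9 to 98.0). Read through the distal site, the CFIm59 knockout lines used it most and the CFIm68 knockout lines least (CFIm59 knockout against control log2 -2.25, SE 0.41, adjusted p = 0.000347; CFIm68 knockout against control log2 4.06, SE 0.58, adjusted p = 2.36e-07). HNRNPDL (chromosome 4, minus strand, 83345781 and 83344363) showed the same order, at 72.3 and 76.3% in the CFIm59 knockout lines, 98.4 and 99.1% in the CFIm68 knockout lines and 89.9% in the control (88.0 to 91.4; log2 -1.60, SE 0.37, adjusted p = 0.00485 for CFIm59). RAC1, a small GTPase of the actin cytoskeleton (chromosome 7, plus strand, 6442322 and 6443595), held 10.4 and 7.03% in the CFIm59 knockout lines, 43.9 and 41.3% in the CFIm68 knockout lines and 21.6% in the control (log2 -1.55, SE 0.39, adjusted p = 0.0085 for CFIm59). PPP6C, a phosphatase catalytic subunit (chromosome 9, minus strand, 127911406 and 127909509), held 63.8 and 69.7% in the CFIm59 knockout lines, 99.7 and 99.7% in the CFIm68 knockout lines and 90.9% in the control (86.2 to 94.1; log2 -2.30, SE 0.51, adjusted p = 0.00312 for CFIm59). All 4 CFIm59 calls ended with DESeq2, that of HNRNPDL also without CFIm59 knockout line 1, that of RAC1 without line 2, and those of RAC1 and PPP6C with the outermost sites.

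By list, counts to distal in the CFIm59 knockout stand beside 8.67% of all members and 5.06% of all pairs. They were 2 of 4 cleavage and polyadenylation factors (CPSF2 and CSTF2), 2 of 4 hnRNP proteins, 1 of 4 SR proteins (SRSF7), 3 of 19 ubiquitin genes and 2 of 11 chaperones. The calls of CPSF2, CSTF2 and SRSF7 ended with DESeq2. That of CPSF2 also ended with no read minimum, with the outermost sites and without either CFIm59 knockout line. CSTF2 lost its call without CFIm59 knockout line 1 as well, and SRSF7 with the outermost sites. Nuclear transport and phosphatases gave 2 of 10 each, lipid synthesis 2 of 11, chromatin regulators 2 of 14 and membrane traffic 2 of 21. RAS, PI3K and MAPK signalling gave 1 of 17, with PIK3C2A to proximal, and cell cycle 1 of 13. The 15 3′ UTR-binding regulators, 8 microRNA and deadenylation genes, 14 Wnt, Notch and TGF-beta genes, 11 translation factors, 27 solute carriers and 27 zinc finger genes gave 0 in either direction. With lists of this size, 0 is not far from the share of all members.

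Of the 9 members that moved to proximal in the CFIm59 knockout, EFNA1, an ephrin ligand (chromosome 1, plus strand), stood at 41.8 and 49.5% in the CFIm59 knockout lines, 21.4 and 15.6% in the CFIm68 knockout lines and 13.0% in the control (adjusted p = 0.000333), a call that ended with DESeq2. Its sites lay 3997 nt apart, the widest of all members. PRPF4B, a kinase of the spliceosome (chromosome 6, plus strand, 4062139 and 4065216), stood at 54.2 and 66.9% in the CFIm59 knockout lines, 11.2 and 28.0% in the CFIm68 knockout lines and 33.3% in the control (28.5 to 38.5; log2 1.66, SE 0.43, adjusted p = 0.0133 for CFIm59). MGEA5, the O-GlcNAcase, held 47.9 and 56.5% in the CFIm59 knockout lines, 24.7 and 22.7% in the CFIm68 knockout lines and 27.1% in the control (adjusted p = 0.00461). MCL1, an anti-apoptotic BCL2 relative (chromosome 1, minus strand, 150548438 and 150547036), stood at 14.0 and 20.9% in the CFIm59 knockout lines, 13.3 and 18.3% in the CFIm68 knockout lines and 6.03% in the control (3.90 to 9.23). It passed toward proximal in both knockouts (adjusted p = 0.0293 for CFIm59 and 0.0142 for CFIm68). Both calls of MCL1 used the same control library, and it did not pass between the knockouts. Its CFIm68 call ended with DESeq2, with no read minimum and without CFIm68 knockout line 2. RPL28, already mostly proximal, stood at 99.5 and 99.6% in the CFIm59 knockout lines, 97.6 and 97.2% in the CFIm68 knockout lines and 98.0% in the control (adjusted p = 0.00161). Sites of EFNA1 and MGEA5 are also listed under other genes, which leaves their reads uncertain. With DESeq2 and without CFIm59 knockout line 2 the CFIm59 calls of PRPF4B, MGEA5 and MCL1 ended.

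**Figure D2:**
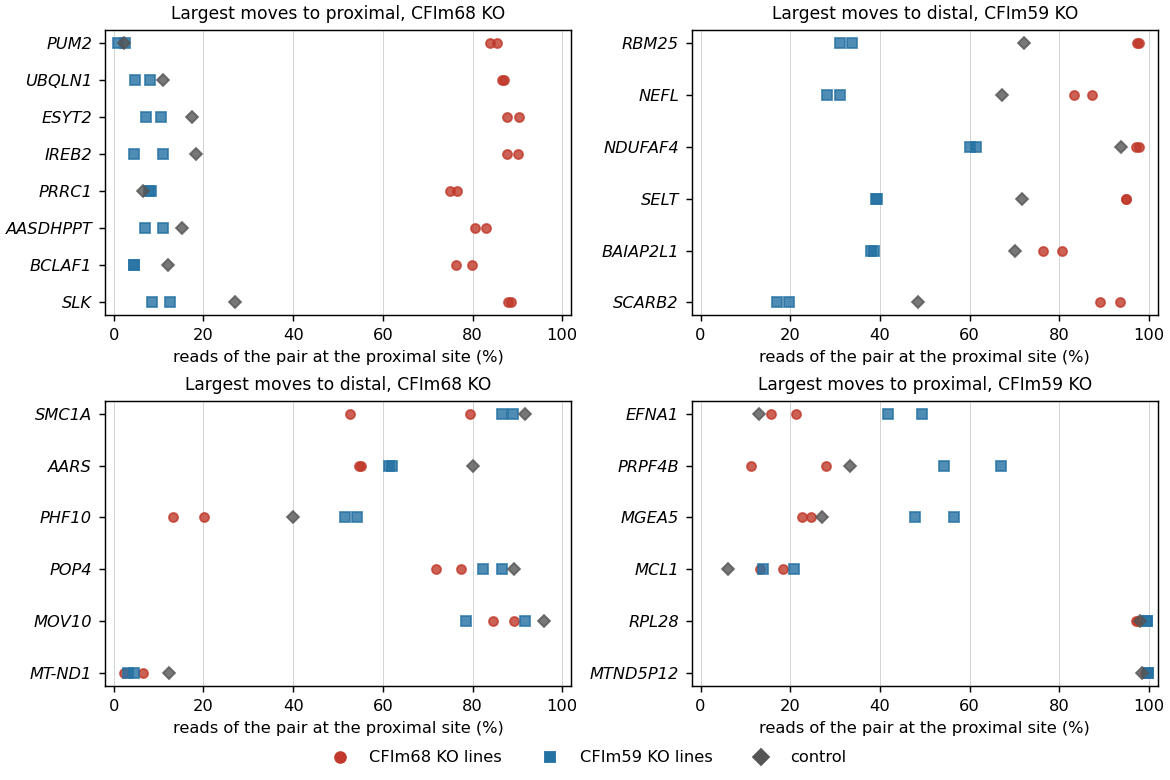
Proximal site use (%) in each library for the members with the largest moves in each direction; circles are CFIm68 knockout lines, squares CFIm59 knockout lines and diamonds the control. At top left the CFIm68 knockout lines lie at 74.9% or more and the other libraries at 27.0% or less, and at top right the CFIm59 knockout lines lie lowest in every gene.

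Set against each other, the 2 knockouts gave more calls, with 2 lines on each side. Of 1615 members 1035 used the proximal site more in the CFIm68 than in the CFIm59 knockout, 64.1% against 40.5% of all pairs tested, and 54 used it less, 3.34% against 6.08%. The median difference was 20.6 points, against 8.12 points over all pairs. DESeq2 called 857 of the 1035 and 24 of the 54. ERO1L, an ER oxidoreductase (chromosome 14, minus strand, 53110019 and 53106780), was among the 6 largest differences, at 95.4 and 95.9% in the CFIm68 knockout lines, 15.1 and 24.8% in the CFIm59 knockout lines and 42.0% in the control (34.9 to 49.4; CFIm68 against CFIm59 knockout log2 6.41, SE 0.42, adjusted p = 1.33e-17). YME1L1, a mitochondrial protease whose ends are shown above (27400662 and 27399384), stood at 88.2 and 88.2% in the CFIm68 knockout lines and 40.5 and 41.2% in the CFIm59 knockout lines, with the control between at 63.3% (log2 3.43, SE 0.34, adjusted p = 3.77e-12). HMGB1, an abundant chromatin protein (31035032 and 31033989), held 96.9 and 96.1% in the CFIm68 knockout lines, 66.9 and 64.2% in the CFIm59 knockout lines and 79.7% in the control (log2 3.87, SE 0.34, adjusted p = 1.33e-13).

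Some members that passed in neither comparison with the control passed here. ARF3, a Golgi GTPase (chromosome 12, minus strand, 49332493 and 49329992), held 42.4 and 33.5% in the CFIm68 knockout lines and 14.1 and 17.3% in the CFIm59 knockout lines, with the control at 27.9% (log2 1.69, SE 0.34, adjusted p = 3.82e-05). EIF2S2, the beta subunit of eIF2, held 97.0 and 95.2% in the CFIm68 knockout lines and 89.3 and 90.8% in the CFIm59 knockout lines (adjusted p = 0.00279). SLC39A8, a zinc and manganese importer, held 16.9 and 13.1% in the CFIm68 knockout lines and 3.40 and 4.72% in the CFIm59 knockout lines (adjusted p = 0.00029). In these 3 genes the lines of the 2 knockouts did not overlap. Both CFIm68 knockout lines lay above both CFIm59 knockout lines in 1238 members (76.7%) and in 56.7% of all pairs tested. By list, counts with more proximal use in the CFIm68 knockout stand beside 64.1% of all members and 40.5% of all pairs. They were 9 of 10 nuclear transport genes, with KPNB1 to distal, and 12 of 15 3′ UTR-binding regulators, with CAPRIN1 and LARP4 to distal. The direction of KPNB1 and CAPRIN1 turned with the outermost last exon sites. Wnt, Notch and TGF-beta signalling gave 13 of 14, RAS, PI3K and MAPK signalling 15 of 17, membrane traffic 17 of 21, ubiquitin conjugation 15 of 19, chaperones 10 of 11 and lipid synthesis 9 of 11. SR proteins gave 4 of 4, hnRNP proteins and cleavage factors 3 of 4 each, translation factors 8 of 11, chromatin regulators 10 of 14 with 1 to distal, phosphatases 6 of 10 and the microRNA list 5 of 8. Cell cycle genes gave 8 of 13 with 3 to distal, solute carriers 13 of 27 and zinc finger genes 9 of 27 with 2 to distal.

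The 54 members with the opposite difference included PHF10, EFNA1, MGEA5 and PRPF4B, given above, and 2 more among the 6 largest. CAPRIN1 (chromosome 11, plus strand, 34120605 and 34122062) held 28.5 and 38.8% in the CFIm68 knockout lines, 65.3 and 71.3% in the CFIm59 knockout lines and 51.2% in the control (42.5 to 59.9; log2 -2.12, SE 0.38, adjusted p = 5.85e-06). MKI67, the proliferation antigen Ki-67 (chromosome 10, minus strand, 129897407 and 129896160), held 30.7 and 31.1% in the CFIm68 knockout lines, 53.9 and 56.4% in the CFIm59 knockout lines and 44.2% in the control (log2 -1.47, SE 0.35, adjusted p = 0.000429). BUB3, a spindle checkpoint protein, was at 4.32 and 4.85% in the CFIm68 knockout lines and 9.82 and 10.9% in the CFIm59 knockout lines (adjusted p = 0.00395). With the most proximal and most distal last exon sites the difference turned to proximal in PHF10, MGEA5, PRPF4B, CAPRIN1 and MKI67, and SMC1A turned as well.

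**Figure D3:**
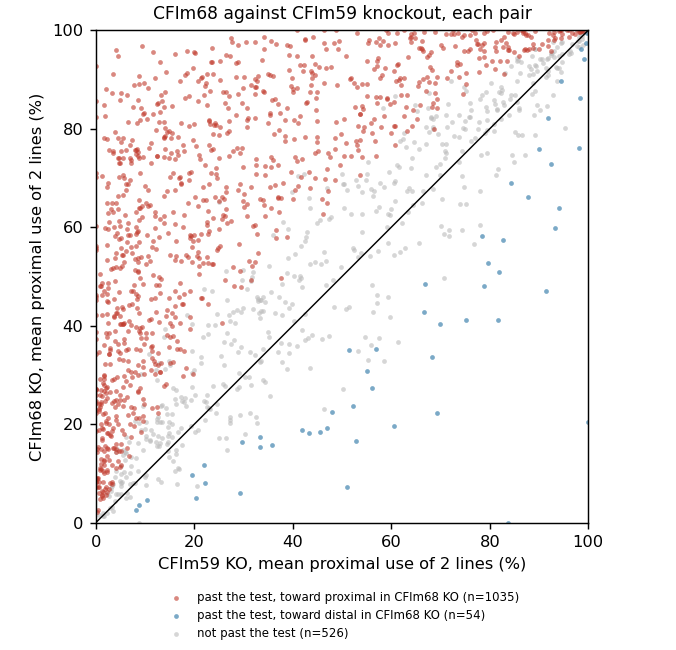
Mean proximal site use (%) of the 2 CFIm68 knockout lines (vertical axis) against that of the 2 CFIm59 knockout lines (horizontal axis), with a point for each of the 1615 pairs and a line where they are equal; colours give the edgeR call. The 1035 pairs past the test toward proximal in the CFIm68 knockout fill the area above the line, and the 54 toward distal lie below it.

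Shares called were close to each other across distances within the class. In the CFIm68 knockout 44.3% of 481 members under 1500 nt moved to proximal, 43.7% of 341 from 1500 to under 2000 nt, 48.2% of 514 from 2000 to under 3000 nt and 45.2% of 279 from 3000 nt on. In the CFIm59 knockout 8.94, 10.9, 7.20 and 8.24% of the same bins moved to distal. Outside the class the shares to proximal in the CFIm68 knockout were 4.56% of 1075 last exon pairs under 250 nt, 28.6% of 1296 pairs from 250 to under 1000 nt and 27.2% of 694 pairs of 4000 nt or more. Median reads per library were 98.8, 93.2 and 66.0 in these 3 classes and 72.8 in the members, and the differences between classes were not tested.

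At the limits, MAU2 and COG6, both 1000 nt apart, lay just inside, and PATL1 at 998 nt and DCBLD1 at 997 nt just outside. Proximal use in the CFIm68 knockout lines was 71.0 and 64.0% in MAU2, 60.5 and 45.7% in COG6, 10.4 and 9.18% in PATL1 and 65.7 and 59.4% in DCBLD1. In the control it was 44.0% in MAU2, 11.3% in COG6, 5.43% in PATL1 and 1.89% in DCBLD1. At the upper limit EFNA1 at 3997 nt and WDR26 at 3988 nt lay inside, and NAT8L at 4010 nt and C12orf49 at 4016 nt outside. WDR26, a ubiquitin ligase subunit, stood at 71.5 and 76.6% in the CFIm68 knockout lines and 60.6% in the control, and C12orf49 at 91.1 and 86% in the CFIm68 knockout lines and 40% in the control. In the CFIm68 knockout against the control COG6 and C12orf49 passed the test, and MAU2, WDR26 and EFNA1 did not.

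**Figure D4:**
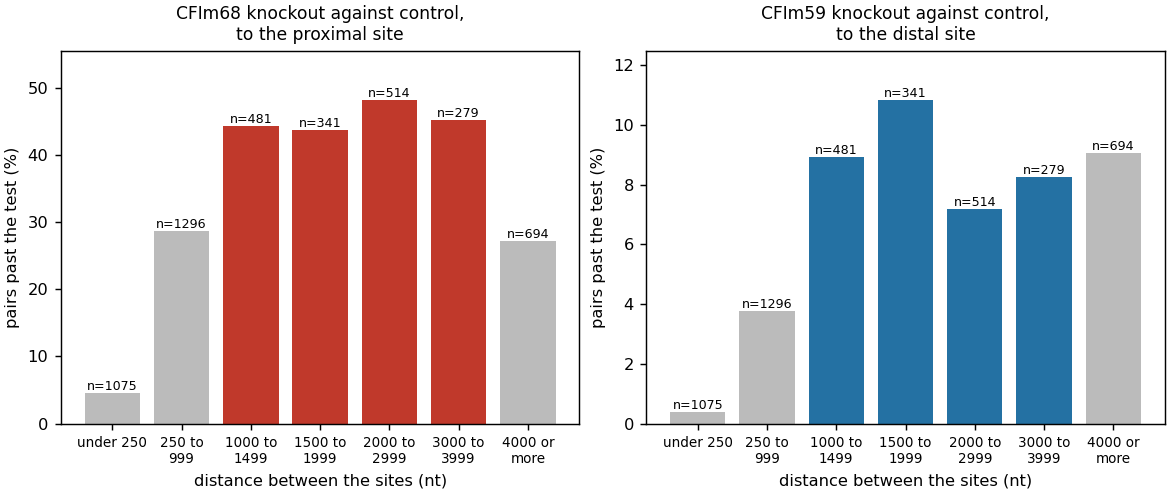
Share of pairs past the test (%) by distance between the sites (nt), for the CFIm68 knockout to proximal (left) and the CFIm59 knockout to distal (right), each against the control; coloured bars are the members, grey bars other last exon pairs, and n is the number of pairs. On the left the 4 coloured bars lie between 43.7 and 48.2%, above the 3 grey bars; on the right they lie between 7.20 and 10.9%, close to the 9.08% of the widest pairs.

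Calls were counted by whether further last exon sites lay between the pair, a difference that was not tested. Of 466 members with 1 or more last exon sites between, 62.0% moved to proximal in the CFIm68 knockout and 13.5% to distal in the CFIm59 knockout. Of 1149 members with none between, 38.9 and 6.70% did. The median changes were 22.5 and -7.62 points with sites between and 10.7 and -4.25 points with none. Depth moved with this split, at a median of 96.5 reads per library with sites between and 65.2 with none, and its part was not tested. Over all members, those averaging 100 or more reads per library were called more often than those under 100, at 52.1 and 41.7% to proximal in the CFIm68 knockout and 15.0 and 4.93% to distal in the CFIm59 knockout. In points the order was the other way in the CFIm68 knockout, with medians of 8.88 in the deeper and 17 in the shallower members. BCLAF1, with 3 sites between, CNOT6 with 1 and EIF1AX with 5 belong to the first set, and TLE4, SELT and AASDHPPT, with 0, to the second.

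Gene levels came from reads summed over all sites of a gene, and few members passed at that level. In the CFIm68 knockout against the control 23 members were higher and 35 lower, 1.42 and 2.17% against 1.59 and 2.03% of 14636 genes, and the median log2 change was 0.00. DESeq2 called 0 higher and 13 lower. The proximal sites of members had a median log2 change of 0.57 and the distal sites of -0.61, on log2 of CPM + 0.5. In the 736 members that moved to proximal, these were 1.31 and -1.26, and the gene level changed by a median log2 of -0.02. In the CFIm59 knockout 94 members were higher and 109 lower, 5.82 and 6.75% against 6.98 and 6.87% of all genes, and the median log2 changes were -0.43 at proximal sites, 0.16 at distal sites and -0.04 at gene level. Among the 140 that moved to distal, 5 genes were higher and 22 lower, with a median log2 of -0.23 at gene level. These are 3.57 and 15.7%, against 5.57 and 9.34% of all pairs tested. Of the 140, 90 averaged 100 or more reads per library, and the part of depth was not tested. Between the CFIm68 and the CFIm59 knockout 177 members were higher and 150 lower, 11 and 9.29% against 9.46 and 10.3% of all genes. All pairs tested met the same read minimums as the members. Among them the shares higher and lower were 1.53 and 2.78% for the CFIm68 knockout and 5.57 and 9.34% for the CFIm59 knockout. Between the knockouts they were 11.7 and 9.97%, and these differences from the members were not tested. In bulk libraries, fewer cells that express a gene and less RNA per cell cannot be told apart.

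SCARB2 was among the few members past both tests, with the gene higher in the CFIm68 knockout than in the control by log2 1.22 (adjusted p = 0.00754). HMGB1 was lower in both knockouts, each against the same control library. The change was log2 -0.91 in the CFIm68 knockout (adjusted p = 0.0168) and -0.82 in the CFIm59 knockout (adjusted p = 0.0145). TLE4 was lower in the CFIm59 knockout by log2 -1.19 (adjusted p = 0.00117), and SCD, a fatty acid desaturase, by log2 -1.42 (adjusted p = 0.000112). The gene level of BCLAF1, AASDHPPT, SLK, PRRC1, RBM25 and NDUFAF4 did not pass in either knockout, with log2 values between -0.43 and 0.46.

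Annotated 3′ ends were then read for letters near the cut. Of 1606 members whose gene was found in GENCODE, 172 had a single pair of annotated ends at the deposited distance within 3 nt. When the distance was shifted by 100, 200 or 300 nt either way, 11 to 26 members matched, so some matches may be accidental. AATAAA stood in the last 40 bases of 73.3% of distal and 47.7% of proximal ends, and TGTA in the last 100 bases of 67.4% of distal and 48.8% of proximal ends. Over all 133770 annotated transcript ends of protein-coding genes, the shares were 22.4 and 34.4%. That set holds transcripts of any type from these genes, incomplete models included. In 306 other last exon pairs matched the same way, AATAAA stood at 52.6% of distal and 45.4% of proximal ends and TGTA at 54.9 and 48%.

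Among the 172 members, 78 had moved to proximal in the CFIm68 knockout. Their distal ends held TGTA in 76.9% and 2 or more copies in 37.2%, against 59.6 and 20.2% of the 94 that did not pass. Their proximal ends held it in 53.8%, against 44.7%. Of the 15 that had moved to distal in the CFIm59 knockout, 11 had TGTA at the distal and 7 at the proximal end. These are counts of letters in a subset with annotated ends, and a match is not evidence of binding.

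**Figure D5:**
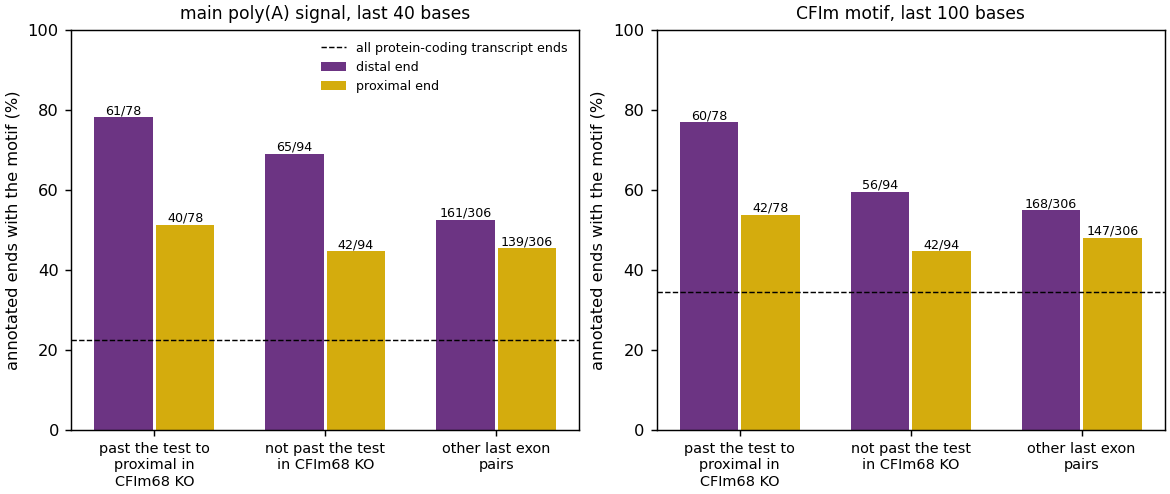
Share (%) of annotated transcript ends with the main poly(A) signal in the last 40 bases (left) or CFIm-bound letters in the last 100 (right). Distal and proximal ends are shown apart. Numbers over bars are ends with the letters over ends read. The dashed line is the share over all annotated transcript ends of protein-coding genes, of any transcript type. Distal bars lie above proximal bars in all 3 sets, and on the right the tallest bar is the 76.9% of distal ends of members that moved to proximal in the CFIm68 knockout.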

How the data were processed

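Per the file headers, the deposited table holds, for every poly(A) site, its gene, class and position and an unnormalized read count in each of 5 libraries. The submitters' processing notes name hg19, TopHat2 2.1.0 and deepTools 2.4. The sources used here do not say how sites were called or internal priming handled. Of 290072 entries, 17824 were repeated listings of a site and held 0 reads, and the first listing was kept. Sites listed under several genes (42 members) therefore carry their reads under 1 gene. Gene lists and members were chosen with earlier results of these data known.

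Proximal and distal counts of all 5869 pairs were fitted in edgeR 4.0.16 (R 4.3.3) by quasi-likelihood, with library terms and an interaction of site and group, all 5 libraries sharing 1 spread (common dispersion 0.0173). Reads per gene were filtered with filterByExpr, scaled by TMM and tested likewise. DESeq2 1.42.0, other minimums, other pairs and leaving out lines were alternatives. Control shares carry Wilson 95% intervals, which cover counting error only. Per the labels' protocols, cDNA was primed with oligo(dT) carrying random bases and amplified by PCR, and the sources used here do not say whether duplicate reads were removed. Site levels are log2 of CPM + 0.5. Sequence by hg19 coordinates was not read, and GENCODE 29 ends were used instead, a choice made after seeing the data.

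Named genes were the 3 most-read members of each of 18 lists, the 10 most-read members, the largest moves in percentage points past the test, at 100 or more reads per library and with both lines on the same side of the control (8 to proximal and 6 to distal per knockout, 6 each way between knockouts, lines not overlapping), those at the distance limits and those with matched ends. Other list members are named without values.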

Additional observations from a re-analysis of the deposited data

How the results depend on the processing

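With DESeq2, the share of members to proximal in the CFIm68 knockout was 28.2% and to distal 0.433%, in the CFIm59 knockout 0.372% to distal and 0.124% to proximal, and between the knockouts 1.49% to distal. At gene level DESeq2 gave 0% higher and 0.805% lower in the CFIm68 knockout, 1.55 and 2.6% in the CFIm59 knockout, and 3.96 and 4.4% between the knockouts. With minimums of 100 and 20 reads, which left 407 members, the CFIm59 knockout gave 24.8% to distal and 1.72% to proximal. With no minimum it gave 4.33% to distal, the CFIm68 knockout 0.743% to distal, and the knockouts differed to distal in 2.11%. With the outermost sites, which is another pair for many genes, the CFIm68 knockout gave 0.929% to distal and the CFIm59 knockout 0.31% to proximal. From 1500 to under 3000 nt the shares were 0.234% to proximal in the CFIm59 knockout and 2.11% to distal between the knockouts, and with sites listed under 1 gene only the share to proximal in the CFIm59 knockout was 0.318%. The causes were not tested.

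Leaving out a line gave from 39.9 to 45.8% to proximal and 1.3 to 1.55% to distal in the CFIm68 knockout, from 3.84 (without CFIm59 knockout line 2) to 12% to distal and 0.31 to 0.681% to proximal in the CFIm59 knockout, and from 56.2 to 64.1% to proximal and 2.17 to 3.34% to distal between the knockouts. At gene level the ranges were 1.42 to 1.55% higher and 1.55 to 2.41% lower for CFIm68, 3.47 to 7.62% and 3.65 to 8.42% for CFIm59, and 5.76 to 10.6% and 5.76 to 9.04% between the knockouts. Leaving out chromosome M and the region shared by X and Y, added after seeing the data, moved the CFIm59 share to distal to 8.63%.

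Replicate numbers in the labels only number the lines: differences between line 1 and line 2 correlated at 0.03 across pairs for site use and -0.03 across genes. With a replicate block, 749 members moved to proximal and 29 to distal in the CFIm68 knockout, 10 and 171 in the CFIm59 knockout, and 1047 and 54 between the knockouts, and gene level gave 0.743% higher and 1.11% lower in the CFIm68 knockout.

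Directions turned with the outermost sites in MTND5P12 (log2 -1.06), MGEA5 (1.87), CAPRIN1 (2.43), PRPF4B (3.36) and PHF10 (5.83) for the CFIm68 knockout against control, and in MKI67 (0.38), MGEA5 (1.20), KPNB1 (1.43), PRPF4B (1.61), SMC1A (1.91), CAPRIN1 (2.68) and PHF10 (2.75) between the knockouts. That of MT-ND1 between the knockouts turned without CFIm68 knockout line 1 (-0.78, against 0.81 without line 2). Of the named genes' calls, 40 of 59 for CFIm68, 2 of 26 for CFIm59 (NDUFAF4 and RPL28) and 55 of 72 between the knockouts neither ended nor turned under any alternative run. Median depth of 72.8 reads per pair limits what can be called.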
